A study of Mus musculus with 6 samples.

Results

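Caspases are proteases that cut other proteins after aspartate, and 8 genes of this family and its regulators were followed across all arrays: the caspases Casp8, Casp9, Casp6 and Casp14, the death complex genes Fadd and Cflar, the caspase inhibitor Xiap and its antagonist Diablo. They were chosen as a set of gene symbols. On the array used they were measured by 10 of 21789 probe sets that carry 1 gene symbol (19938 genes in all), and each gene was represented by its probe set of highest mean signal over the 6 arrays. All 10 probe sets passed the signal filter described with the processing.

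RNA labelled as mouse aorta was hybridised to one-colour Affymetrix arrays, 3 from Trail knockout mice and 3 from wild-type mice. Both genotypes are labelled strain C57Bl6/J and 6 weeks old, untreated as far as the labels say, and the knockout line came from Amgen. The comparison asked what the loss of the death ligand Trail, the product of Tnfsf10, does to expression in the vessel. The labels do not say which part of the gene is deleted, nor whether tissue of several animals was pooled, so p-values measure only the spread between these samples.

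When Trail or a related ligand binds its death receptor, the adaptor FADD recruits the initiator caspase encoded by Casp8, and the c-FLIP protein encoded by Cflar competes with it in the same complex. Stress inside the cell works through mitochondria instead: released cytochrome c assembles a complex that activates the initiator encoded by Casp9, and the co-released Diablo protein (also called Smac) lifts the block that XIAP puts on caspases. Casp6 encodes an effector caspase, while Casp14 encodes a caspase of the epidermis that takes part in cornification rather than in cell death. These proteins are controlled largely by cleavage and binding, which transcript levels do not measure.

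The promoters of Casp14 and Casp6 are shown because these 2 genes varied most between arrays, and that of Casp9 because it had the smallest difference between the genotypes. Each window runs from 250 bases before to 50 bases after the RefSeq transcription start, 5′ to 3′ on the strand of the gene (GRCm38.p6). Capitals mark the GC box, searched as GGGCGG on both strands.
Casp14, chr10:78718244-78718543, minus strand: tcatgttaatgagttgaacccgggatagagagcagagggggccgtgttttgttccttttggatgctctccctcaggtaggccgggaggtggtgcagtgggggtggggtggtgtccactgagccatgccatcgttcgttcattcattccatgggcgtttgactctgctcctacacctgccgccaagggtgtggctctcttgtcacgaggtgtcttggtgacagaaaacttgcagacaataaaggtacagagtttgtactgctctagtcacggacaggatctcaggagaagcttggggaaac
Casp6, chr3:129901165-129901464, plus strand: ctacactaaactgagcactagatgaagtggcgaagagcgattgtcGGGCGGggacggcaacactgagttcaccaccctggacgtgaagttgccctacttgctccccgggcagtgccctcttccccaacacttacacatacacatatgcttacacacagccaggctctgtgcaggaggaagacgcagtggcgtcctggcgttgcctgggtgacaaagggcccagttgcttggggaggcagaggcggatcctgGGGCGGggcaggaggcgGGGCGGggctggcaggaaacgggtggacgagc
Casp9, chr4:141793362-141793661, plus strand: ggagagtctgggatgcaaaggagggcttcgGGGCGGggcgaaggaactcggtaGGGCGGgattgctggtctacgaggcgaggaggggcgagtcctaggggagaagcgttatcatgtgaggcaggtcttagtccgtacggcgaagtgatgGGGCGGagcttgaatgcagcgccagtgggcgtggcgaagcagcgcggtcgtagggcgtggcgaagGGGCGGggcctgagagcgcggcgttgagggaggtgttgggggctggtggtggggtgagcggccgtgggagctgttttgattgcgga
The Casp14 window holds 0 GC boxes and 9 CpG dinucleotides, the Casp6 window 3 GC boxes and 16 CpG, and the Casp9 window 4 GC boxes and 28 CpG. Of all 32851 RefSeq windows of this length, 35.7% hold a GC box, and the median window has 7 CpG. None of the 3 holds the TATA box letters TATAAA (in 13.6% of all windows, both strands) or the AP-1 letters TGANTCA (in 7.81%), which says only that these letters are not in these windows. All 8 genes had a window. Casp8 and Cflar are neighbours on chromosome 1 in this assembly, with 1 annotated lncRNA gene, Gm39646, starting between them.

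The arrays differed in the tissue they carried before any comparison of genotypes, and this bears on every value below. The smooth muscle list had medians of 9.38 to 10.51 on the log2 scale over the 6 arrays. Of its 10 markers, 1 was over 2-fold below every other array on wild type 1, Des (7.86, against 11.18 to 11.62). Whether the smooth muscle signal came from the vessel wall or from other tissue was not tested. On the array labelled wild type 1, all 15 skeletal muscle markers and all 22 markers of stratified squamous epithelium were over 2-fold below every other array, while 7 of 9 brown fat, 9 of 9 white fat and 10 of 13 interferon response genes were over 2-fold above every other array. On the array labelled knockout 2, 10 of 11 stomach epithelium genes were over 2-fold above every other array, and knockout 1 had a median of 8.13 for lung epithelium genes, where the other 5 arrays had 5.08 to 5.51. Tnfsf10 itself gave 5.02, 4.48 and 4.09 on knockout 1, 2 and 3, against 8.42, 4.90 and 4.85 on wild type 1, 2 and 3, so it separated wild type 1 alone from the knockout arrays, and its probe set did not pass the signal filter. Wild type 2 and 3 were not set apart from knockout 1 by this gene, so it cannot check the labels of those 2 arrays, on which every comparison without wild type 1 rests. Results are therefore given with and without the arrays labelled wild type 1 and knockout 2, and directions follow the labels.

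No caspase or caspase regulator passed the test between the genotypes. In limma, 0 of the 8 genes had an adjusted p under 0.05, and 0 of 13074 probe sets did over the whole array (0%). At an unadjusted p under 0.05 the numbers were 1 of 8 and 83 of 13074 (0.635%). Of the 8 genes, 6 had a lower mean in the knockout and 2 a higher one, where 57.3% of all tested probe sets were lower. The median difference of the 8 genes, knockout minus wild type, was -0.11, against -0.04 over all tested probe sets. On the 5 arrays other than wild type 1, 5 genes were lower and 3 higher (57.6% of all tested probe sets were lower), and 0 of 8 had an unadjusted p under 0.05, against 1.42% of all. The median difference there was -0.03 for the 8 genes and -0.03 for all tested probe sets. The 2 widest ranges belonged to Casp14 and Casp6, and each came from 1 array.

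**Figure D1:**
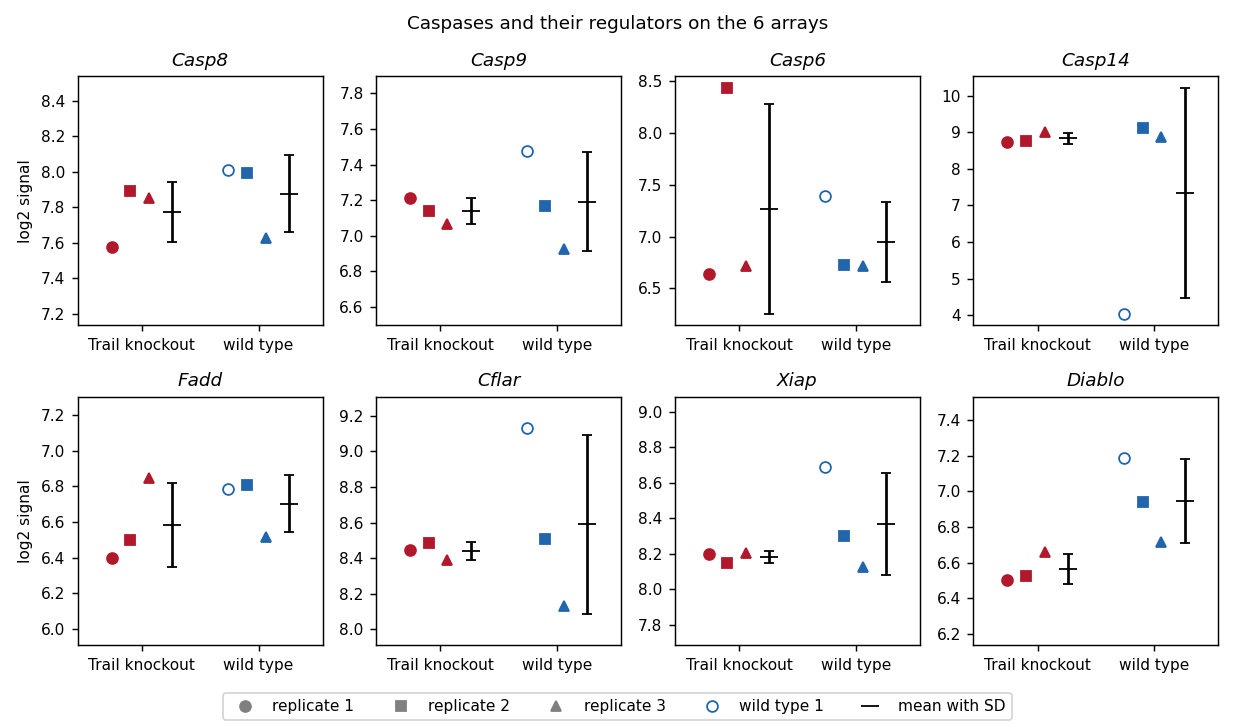
Log2 signal (vertical axes, a scale per panel) of the 8 genes on each array, Trail knockout left and wild type right, with the group mean and SD beside the points. The open circle is wild type 1, which holds the highest value of 5 genes and a Casp14 value of 4.03, and the square at 8.44 for Casp6 is knockout 2.

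Casp8, the initiator caspase of the death receptors, had log2 signals of 7.58, 7.89 and 7.85 on knockout 1, 2 and 3, against 8.01, 7.99 and 7.63 on wild type 1, 2 and 3. The groups overlapped, with the lowest value on knockout 1 and wild type 3 close above it. The mean was 7.77 ± 0.17 in the knockout and 7.88 ± 0.22 in wild type (SD, n = 3 each), a difference of -0.10 (SE 0.16, 95% interval -0.50 to 0.30, limma adjusted p = 0.911). With wild type 1 left out it was -0.04 (SE 0.16, 95% interval -0.42 to 0.35).

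Casp9, the initiator of the mitochondrial route, gave 7.21, 7.14 and 7.06 in the knockout, against 7.48, 7.17 and 6.92 in wild type. All 3 knockout values lay inside the wild-type range. The difference was -0.05 (SE 0.16, 95% interval -0.45 to 0.35, limma adjusted p = 0.949), the smallest of the 8 genes, and without wild type 1 it was 0.09 (SE 0.12), so even its sign rested on that array.

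Casp6, the effector caspase, gave 6.64, 8.44 and 6.72 in the knockout, against 7.39, 6.72 and 6.72 in wild type. Knockout 2 stood 2.07-fold above the next array, wild type 1, and the other 4 arrays lay within 0.08 of each other. A value over 2-fold above all other arrays on knockout 2 was found for 1.09% of tested probe sets. The mean was 7.27 ± 1.01 in the knockout and 6.94 ± 0.39 in wild type (SD, n = 3 each), a difference of 0.32 (SE 0.53, 95% interval -0.98 to 1.63, limma adjusted p = 0.911). It was -0.26 (SE 0.25) without knockout 2, 0.55 (SE 0.52) without wild type 1, and -0.04 (SE 0.13) without both, a run added after the data were seen.

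Casp6 and the stomach list were both highest on knockout 2, and the order of the other arrays differed between them. The stomach list had medians of 5.35, 12.11 and 4.96 on knockout 1, 2 and 3, against 5.12, 4.78 and 6.63 on wild type 1, 2 and 3. Its summed linear signal spanned 372 to 48851 in the knockout and 333 to 2010 in wild type. Gkn1, a secreted gastrokine of the stomach surface, reached 12.97 on knockout 2 and 8.99 on wild type 3, and at most 5.51 on the other 4 arrays, while Tff1, a trefoil peptide of gastric mucus, reached 12.42 on knockout 2. Casp6 was 6.72 on both wild type 2 and wild type 3. Wild type 3 had the second highest stomach signal, but its sum was 2010, against 48851 on knockout 2. The second highest value of Casp6, 7.39, was on wild type 1, where the stomach median was 5.12. Of 6 measured exocrine pancreas markers, 2 were over 2-fold above every other array on knockout 2. They were Clps, the colipase gene, at 13.10 and Pla2g1b, a secreted phospholipase gene, at 13.29. Cela1 (6.23), Cpa1 (4.86), Ctrb1 (6.23) and Cel (5.02) did not stand apart on knockout 2. The pancreas list median was 6.23 on knockout 2 and 5.42 to 6.10 elsewhere. Its summed linear signal was 259 to 18972 in the knockout and 251 to 558 in wild type. No marker of the stomach list is at 0 on this scale, and the part of stomach or pancreas tissue in the Casp6 value was not tested. In whole tissue, fewer cells of a type and less RNA per cell cannot be told apart.

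Among the 11881 other genes that passed the signal filter, those whose profiles over the 6 arrays lay nearest to Casp6 were Slc41a2, Slc7a8, Scamp5 and Rnf149. Likeness was the root-mean-square difference between profiles centred on their own means, and it was 0.06 for Slc41a2, 0.09 for Slc7a8 and 0.10 for both Scamp5 and Rnf149 (log2, over 6 arrays of 1 experiment). Slc41a2, a magnesium transporter gene, gave 8.07 on knockout 2, 7.14 on wild type 1 and 6.35 to 6.52 on the other 4 arrays.

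Casp14, the epidermal caspase, gave 8.72, 8.77 and 9.00 in the knockout, against 4.03, 9.13 and 8.88 in wild type. The other 5 arrays spanned 0.40 on the log2 scale. The value on wild type 1 lay under that array's median of all annotated probe sets, and no detection calls were used here, so no fold is given for it. A value over 2-fold below all other arrays on wild type 1 was found for 7.76% of tested probe sets. The mean was 8.83 ± 0.15 in the knockout and 7.34 ± 2.87 in wild type (SD, n = 3 each), a difference of 1.49 (SE 1.39, 95% interval -1.93 to 4.91, limma adjusted p = 0.911). Without wild type 1 the difference turned to -0.17 (SE 0.14, 95% interval -0.51 to 0.17), and it was 2.38 without wild type 2 and 2.26 without wild type 3, where wild type 1 weighs more.

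Casp14 and the stratified squamous epithelium list were both low on wild type 1 alone. The list medians were 10.26, 10.04 and 10.17 in the knockout, against 5.32, 10.20 and 10.34 in wild type. The order of the other 5 arrays differed, with Casp14 lowest on knockout 1 (8.72). Of the 22 markers, 2 were over 2-fold above every other array on knockout 2, where Casp14 was 8.77. The summed linear signal of the list spanned 54460 to 56184 in the knockout and 991 to 57484 in wild type. Krt13, a keratin of that epithelium, gave 5.31 on wild type 1 and 13.02 to 13.12 elsewhere, and Sprr3, a cornified envelope protein, gave 4.92 and 12.92 to 13.11. Casp14 thus had a high signal on the 5 arrays that carry keratinocyte transcripts and a low one on the array where all 22 of these markers were low, and the part of that tissue in the value was not tested. The nearest profiles were those of Lce1d, a late cornified envelope gene (root-mean-square difference 0.09), Sbsn, the epidermal gene suprabasin (0.10), Ly6g6c (0.11) and Elovl4, an elongase of very long fatty acids (0.11).

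**Figure D2:**
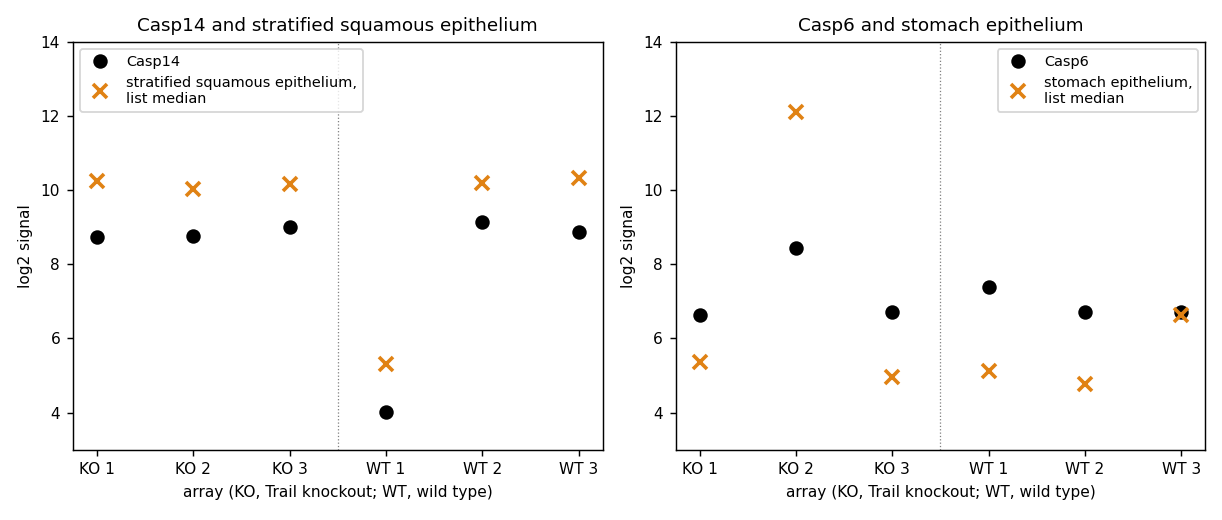
Log2 signal (vertical axis) on each array (horizontal axis; KO, Trail knockout; WT, wild type) of Casp14 beside the median of 22 squamous epithelium markers, left, and of Casp6 beside the median of 11 stomach markers, right. Casp14 and its list are both low on wild type 1 (4.03 and 5.32), and Casp6 and its list are both highest on knockout 2 (8.44 and 12.11).

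The 6 other genes stayed within 1.00 on the log2 scale over all arrays. Their differences ran from -0.39 to -0.05 on 6 arrays and from -0.27 to 0.12 without wild type 1. Of all 8 genes, 5 had their highest value on wild type 1, and each of the 5 was among these 6. Of all tested probe sets, 38.9% had their highest value there. Wild type 1 also had the highest medians of the brown fat list (9.60, against 6.09 to 6.65 elsewhere), the white fat list (11.13, against 6.54 to 8.38) and the interferon response list (8.12, against 6.03 to 6.46). It was highest too for the endothelium list (8.93, against 7.40 to 8.25), with 4 of 8 markers over 2-fold above every other array. The macrophage list had its highest median there (8.19, at most 8.04 elsewhere). However, 0 of its 10 markers were over 2-fold above every other array. Its summed linear signal was 3936 on wild type 1, below the 4114 on knockout 1. The part of those tissues and cells and of the interferon genes in the levels on wild type 1 was not tested.

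Fadd, the adaptor that links death receptors to caspases, gave 6.40, 6.50 and 6.85 in the knockout, against 6.78, 6.81 and 6.52 in wild type. It was the 1 gene of the 6 with its highest value on a knockout array, knockout 3, and the groups overlapped. The difference was -0.12 (SE 0.16, 95% interval -0.52 to 0.28, limma adjusted p = 0.911), and -0.08 (SE 0.17) without wild type 1.

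Cflar, whose c-FLIP protein restrains the caspase encoded by Casp8, was measured by 3 probe sets. The brightest gave 8.45, 8.49 and 8.39 in the knockout, against 9.13, 8.51 and 8.13 in wild type. Wild type 1 stood 1.54-fold above the next array, and wild type 3 was the lowest of the 6, so the wild-type values enclosed all 3 knockout values. The difference was -0.15 (SE 0.26, 95% interval -0.80 to 0.50, limma adjusted p = 0.913), and 0.12 (SE 0.14) without wild type 1. The other probe sets differed by -0.20 (SE 0.14) and -0.33 (SE 0.21) on 6 arrays, and by -0.13 (SE 0.13) and -0.13 (SE 0.14) without wild type 1. On 5 arrays the 3 probe sets of this gene thus disagree in sign, each by less than 1 SE. All 3 were highest on wild type 1.

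Xiap, the direct inhibitor of effector caspases, was the steadiest of the 8 genes in the knockout, with 8.20, 8.15 and 8.20, against 8.69, 8.30 and 8.13 in wild type. Its range without wild type 1 was 0.17, and 10.7% of tested probe sets had a range no wider on those 5 arrays. The mean was 8.18 ± 0.03 in the knockout and 8.37 ± 0.29 in wild type (SD, n = 3 each), a difference of -0.19 (SE 0.17, 95% interval -0.60 to 0.23, limma adjusted p = 0.911). Without wild type 1 it was -0.03 (SE 0.11, 95% interval -0.30 to 0.24).

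Diablo, whose mitochondrial protein relieves the block by XIAP, gave 6.50, 6.52 and 6.66 in the knockout, against 7.19, 6.94 and 6.72 in wild type. It was the 1 gene of 8 whose groups did not overlap, with a gap of 0.06 between knockout 3 and wild type 3. Every knockout array lay below every wild-type array for 4.39% of tested probe sets, a share that leaves out the opposite direction. The mean was 6.56 ± 0.09 in the knockout and 6.95 ± 0.24 in wild type (SD, n = 3 each), a difference of -0.39 (SE 0.15, 95% interval -0.75 to -0.02, 1.31-fold), with an unadjusted p of 0.041 and an adjusted p of 0.911 in limma. Among all tested probe sets, 0.535% had an unadjusted p under 0.05 with a lower mean in the knockout. Without wild type 1 the difference was -0.27 (SE 0.13, 95% interval -0.57 to 0.04), with an unadjusted p of 0.075 and an adjusted p of 0.997 in limma. Without knockout 2 the difference was -0.37 (SE 0.18, 95% interval -0.84 to 0.11, limma adjusted p = 0.964). Diablo did not pass the test in any of these comparisons.

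**Figure D3:**
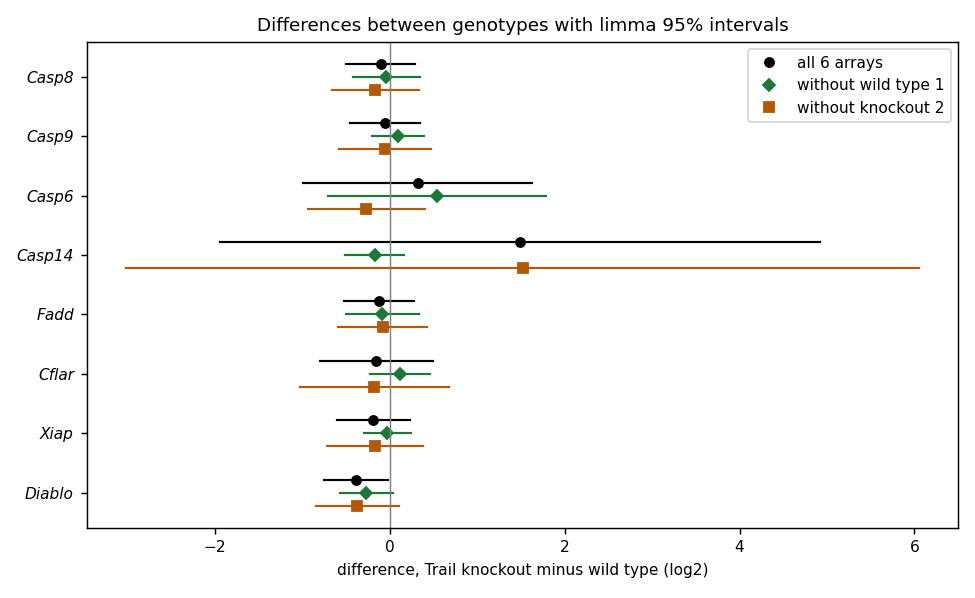
Difference between Trail knockout and wild type (horizontal axis, log2, knockout minus wild type) for the 8 genes with limma 95% intervals, on all 6 arrays, without wild type 1 and without knockout 2. Casp14 has the widest interval on 6 arrays (-1.93 to 4.91) and one of -0.51 to 0.17 without wild type 1, and Diablo is the 1 gene whose interval on 6 arrays does not include 0.

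Other genes of the same pathways were described by 5 lists with 46 symbols, of which 42 had a probe set and 35 passed the signal filter. None of the 35 had an adjusted p under 0.05 in limma, and 0 had an unadjusted p under 0.05. Of the 35, 25 were lower and 10 higher in the knockout, where 57.3% of all tested probe sets were lower. Without wild type 1, 20 of the 35 were lower, where 57.6% of all were. The same shares stand beside the counts of each list below. The median difference of the 35 genes was -0.12, against -0.04 for all tested probe sets, and -0.04 without wild type 1, against -0.03.

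Among receptors and their complex, 7 of 8 tested genes were lower (median -0.14, and -0.03 without wild type 1). Tnfrsf10b, the mouse Trail receptor gene, had means of 6.03 ± 0.02 in the knockout and 6.28 ± 0.39 in wild type (SD, n = 3 each), a difference of -0.24 (SE 0.21), and of -0.02 (SE 0.12) without wild type 1. Cradd, an adaptor with a death domain, differed by -0.19 (SE 0.12), and by -0.09 (SE 0.12) without that array. Of other caspases 3 were tested, with Casp12 at -0.47 (SE 0.34), Casp1, the caspase of the inflammasome, at -0.29 (SE 0.34) and Casp2 at 0.14 (SE 0.21). On the other 5 arrays Casp12 was at -0.11 (SE 0.18) and Casp1 at -0.26 (SE 0.36), and all 3 were lower.

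On the mitochondrial side, 7 of 7 tested genes were lower (median -0.26), and 4 of 7 without wild type 1 (median -0.07). Endog, a mitochondrial nuclease, did not overlap between the groups and differed by -0.31 (SE 0.22), but by -0.07 (SE 0.11) without wild type 1, and Bid, which links the caspase encoded by Casp8 to mitochondria, differed by -0.15 (SE 0.11) and then -0.10 (SE 0.12). Of inhibitors of apoptosis and their antagonists, 6 of 8 were lower (median -0.13), and 2 of 8 without wild type 1 (median 0.06). Htra2, a mitochondrial protease that binds XIAP, differed by -0.35 (SE 0.21), and Xaf1, an interferon-inducible partner of XIAP, by -0.48 (SE 0.49), with 7.62 on wild type 1 and at most 6.10 elsewhere. They were at -0.13 (SE 0.12) and 0.09 (SE 0.15) without wild type 1.

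Caspase substrates had 3 of 9 tested genes lower and 6 higher (median 0.07), and without wild type 1 6 of 9 lower (median -0.04). Parp1, a DNA repair enzyme cut by effector caspases, gave 7.90 ± 0.06 in the knockout and 8.21 ± 0.28 in wild type (SD, n = 3 each). Its groups did not overlap, and it differed by -0.31 (SE 0.17), or by -0.15 (SE 0.11) without wild type 1. Rock1, a kinase that caspase cleavage activates, was at -0.28 (SE 0.28), and at 0.0050 (SE 0.17) without wild type 1. Of the 35 pathway genes, 2 did not overlap between the groups, Endog and Parp1, both lower in the knockout. Of all tested probe sets, 4.39% had every knockout array below every wild-type array, a share that leaves out the opposite direction. Each gene named from these lists had a limma adjusted p of 0.911 on 6 arrays.

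**Figure D4:**
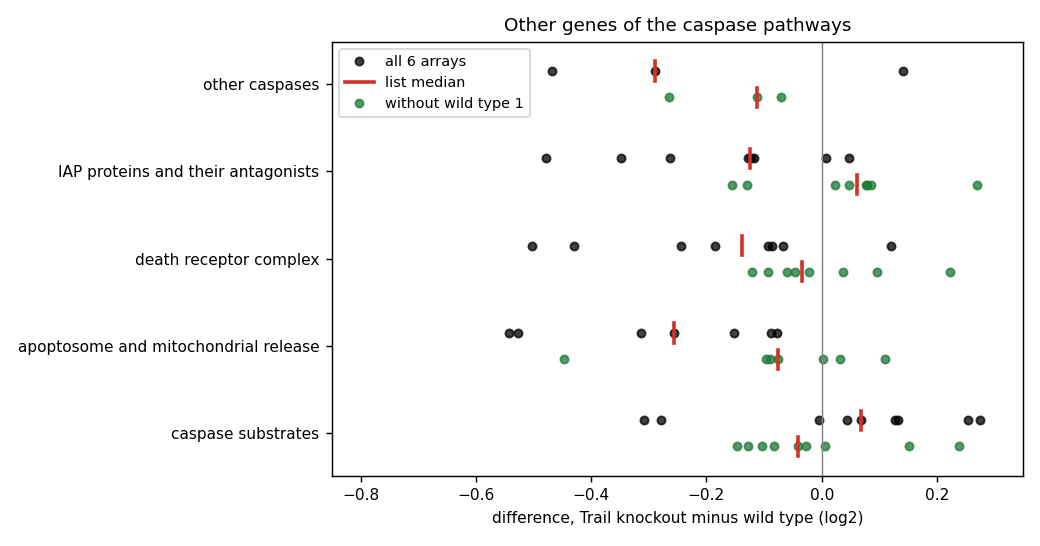
Difference between Trail knockout and wild type (horizontal axis, log2, knockout minus wild type) of the 35 tested genes in 5 lists (vertical axis), a point per gene, on all 6 arrays and without wild type 1, with list medians as red bars. The medians on 6 arrays run from -0.29 to 0.07, and those without wild type 1 from -0.11 to 0.06.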

How the data were processed

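Expression was measured in 6 samples on one-colour Affymetrix arrays. The authors deposited log2 values of 35399 probe sets in a column per sample. The log base was read from their range, 1.55 to 13.96, and the submitters' processing notes name MAS5 without version or role. The sources used here do not give background correction, summary or scaling, and how they were done can change small differences of dim genes. Array medians over annotated probe sets were 6.34 to 6.47. The number of arrays limits the precision.

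Platform annotation (23410 probe sets) gave 1 symbol for 21789, and the others were not used. After leaving out the lowest 40% by mean signal over the 6 arrays, 13074 were compared between genotypes with the moderated test of limma 3.58.1 under R 4.3.3 (trend on intensity; p-values adjusted by Benjamini-Hochberg, threshold 0.05). The code was tested on simulated data. Genes named from pathway lists were the 2 of lowest unadjusted p per list (Casp2 was added after its value was seen), those from marker lists the 2 of highest mean signal, and profile neighbours the 4 nearest of the 2 genes of widest range. Members and lists were chosen with earlier results of these data known. Alternatives were quantile normalization, median centring, other filters, a pseudocount of 16, other moderation, array weights, a replicate block and leaving out arrays.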

Additional observations from a re-analysis of the deposited data

How the results depend on the processing

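No gene of the 8 reached an adjusted p under 0.05 in any of 17 other settings (lowest limma adjusted p 0.749, without wild type 3), and no other probe set did either, except Alox15, the 1 probe set called for knockout 3 against wild type 2 and 3, named after its value was seen. There the lone knockout array is assumed to vary like the others. This run, and the one without wild type 1 and knockout 2, were chosen after seeing the data. Xiap kept its sign in 17 of 18 runs and Diablo in 17 of 17, but many of these runs could not turn it. Other filters, other moderation and the replicate block leave the difference of each gene as it was. Non-overlapping groups also fix the sign of Diablo when arrays are left out or weighted and with the pseudocount. The counts therefore do not measure how firm the signs are. With the 60% filter Diablo and Fadd were not tested. Leaving out 1 array at a time gave -0.26 to 0.63 for Casp6, -0.17 to 2.38 for Casp14, -0.18 to 0.093 for Casp9, -0.38 to 0.12 for Cflar, -0.23 to -0.01 for Casp8, -0.26 to -0.03 for Fadd, -0.31 to -0.03 for Xiap and -0.50 to -0.27 for Diablo. Array weights turned the sign of Casp8 (0.022), Casp9 (0.19), Casp14 (-0.050), Cflar (0.24) and Xiap (0.032). Without wild type 1 and knockout 2, the sign turned for Casp9 (0.092), Casp6 (-0.040), Casp14 (-0.14) and Cflar (0.097), and for knockout 3 against wild type 2 and 3 for Casp8 (0.043), Casp9 (0.018), Casp6 (-0.0024), Fadd (0.18) and Cflar (0.068). The caspase substrate median was -0.044 and -0.026 in those 2 runs, and -0.041 to 0.12 on leaving out 1 array. That of the 3 other caspases was -0.29 on 6 arrays, -0.58 to -0.065 on leaving out 1 array (lowest without knockout 3, highest without knockout 2), and 0.12 for knockout 3 against wild type 2 and 3. The cause of these turns was not tested. Deviations from the group means correlated at 0.09, -0.24 and 0.21 between samples of the same replicate number. These deviations also hold the tissue differences between arrays, so they cannot settle whether the samples were paired. The replicate block gave 0 calls. A balanced block cannot move the difference of Diablo (-0.39), whose unadjusted limma p was 0.095 with it and 0.041 without. Array weights gave Diablo -0.21 (unadjusted p 0.063), and knockout 3 against wild type 2 and 3 gave -0.17.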
